A study of Mus musculus with 2 samples.

Results

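Macrophages and related myeloid cells of the embryonic mouse heart were described through 35 genes, taken by symbol from the 43346 mouse genes of the deposited tables. The set holds the growth factor receptor Csf1r with its ligands, complement subunits, and Fc receptors and their signalling adaptors. It also holds commonly used macrophage markers, lysosomal and killing proteins, scavenger receptors, genes of all leukocytes and a pair of transcription factors. All 35 symbols were matched, and all 35 genes were annotated as protein-coding. Total RNA of hearts of B6NCrl embryos of both sexes at embryonic day 11.5 was sequenced in 2 libraries, replicate 1 and replicate 2, made from separately recorded pools. Replicate 1 came from 109 embryos by its label, and the label of replicate 2 states no count of embryos. There was 1 group, untreated and with no allele named in the labels, so no conditions were compared. Levels are given in both libraries in TPM, a length-corrected share of the transcripts of a library that the authors scaled to the same total in each. With n = 2, the spread between the libraries could be technical or biological.

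Tissue macrophages are phagocytes that take up dying cells, matrix and microbes. Most of them depend on the receptor CSF1R, which binds the growth factors CSF1 and IL-34. In the mouse heart, macrophages derived from the yolk sac settle before monocytes of the fetal liver arrive, and they are known to lie on the epicardium and around growing vessels. Their identity rests on the transcription factor PU.1, the product of Spi1, an ETS family protein that binds purine-rich sequences with a GGAA core.

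Because Spi1 was itself a member, the promoter sequences of the members were read for one such sequence, GAGGAA, on either strand. RefSeq promoter windows on GRCm38.p6 were available for 27 of the 35 members, with 35 windows between them, and the 250 bases before each start were searched. The sequence occurred in 13 of the 27 members and in 14 of the 35 windows, which is 40.0% of these windows, against 23.25% of all 32851 windows in the table. Both windows of Fcgr3 hold the same match, which is counted in each. The background is a share of windows, and no share by gene is given for all genes. The shares describe letters and say nothing of binding. In 5 windows that held no annotated exon within the last 120 bases before the start, the match lay within 60 bases of the start. Those 120 bases are shown for C1qb, Cd53, Fcgr1, Fcgr3 and Trem2, read 5′ to 3′ toward the start, with GAGGAA or its reverse complement TTCCTC in capitals.
C1qb, chr4:136886201-136886320, minus strand: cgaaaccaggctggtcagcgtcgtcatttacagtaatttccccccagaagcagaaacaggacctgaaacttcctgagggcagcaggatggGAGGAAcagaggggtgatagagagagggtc
Cd53, chr3:106790150-106790269, minus strand: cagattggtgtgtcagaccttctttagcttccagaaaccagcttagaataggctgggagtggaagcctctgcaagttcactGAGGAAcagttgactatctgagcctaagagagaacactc
Fcgr1, chr3:96293970-96294089, minus strand: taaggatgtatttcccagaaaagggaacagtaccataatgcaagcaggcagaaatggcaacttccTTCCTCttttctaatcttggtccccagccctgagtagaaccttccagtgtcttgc
Fcgr3, chr1:171059404-171059523, minus strand: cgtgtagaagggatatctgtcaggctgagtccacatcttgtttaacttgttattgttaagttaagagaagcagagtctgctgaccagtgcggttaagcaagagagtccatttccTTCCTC
Trem2, chr17:48346281-48346400, plus strand: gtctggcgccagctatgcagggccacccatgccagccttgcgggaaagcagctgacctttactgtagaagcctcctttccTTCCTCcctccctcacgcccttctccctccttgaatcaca
Counted back from the start, the last base of the match was base 25 in C1qb, base 34 in Cd53, base 35 in Trem2 and base 50 in Fcgr1, and in Fcgr3 the match ran up to the start itself. F13a1, at base 61, was just outside the limit. The capitals of C1qb and Cd53 read GAGGAA on the gene's own strand, and those of Fcgr1, Fcgr3 and Trem2 read TTCCTC. The members with these windows were expressed at very different levels, with C1qb above 10 TPM and Fcgr1 below 1 TPM in both libraries.

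The heart libraries held 34447169 expected counts in mouse genes in replicate 1 and 25261719 in replicate 2. An expected count is an estimated number of reads, with shared reads split between genes. All 8 heart muscle markers examined were above 1 TPM in both libraries, and Actc1, the cardiac actin, had 9152 TPM in replicate 1 and 9633 TPM in replicate 2. Reads of the members were 0.0252% of all mouse gene reads in replicate 1, against 0.0250% in replicate 2. Their summed level was 187 TPM in replicate 1 and 186 TPM in replicate 2, a mean of 186 ± 0.757 TPM (SD, n = 2). In whole hearts a low level may come from few cells or from little RNA per cell, and these cannot be told apart. When TPM was rescaled over nuclear protein-coding genes without globins, the levels of the detected members were 1.52 to 1.53 times as high.

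Myeloid genes were detected, most of them at low levels. Of the 35 members, 21 reached 1 TPM in both libraries, which is 60%, against 56.4% of the 21474 protein-coding genes, so the share was near that of the background. The median member had 2.13 TPM in replicate 1 and 2.04 TPM in replicate 2, against 2.94 and 2.91 TPM for the median protein-coding gene. Lyz2, Lcp1, Laptm5 and C1qb reached 10 TPM in both libraries. Adgre1, Pld4, Mrc1 and Trem2 reached 1 TPM in a single library, and the other 10 members stayed below 1 TPM in both. No member lay above the 90th percentile of protein-coding genes, and Lyz2 came closest at percentile 89.4. The 5 highest members together made up 60.4% of the summed level in replicate 1 and 62.3% in replicate 2. Of the 34 neighbouring pairs in the order of levels, 24 had overlapping values, and most pairs without overlap lay among the upper members. With 2 values per gene, a lack of overlap does not settle the order of a pair. In replicate 1 the authors' interval was 7.27 to 9.40 TPM for Csf1 and 5.42 to 8.21 TPM for its neighbour Tyrobp.

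**Figure D1:**
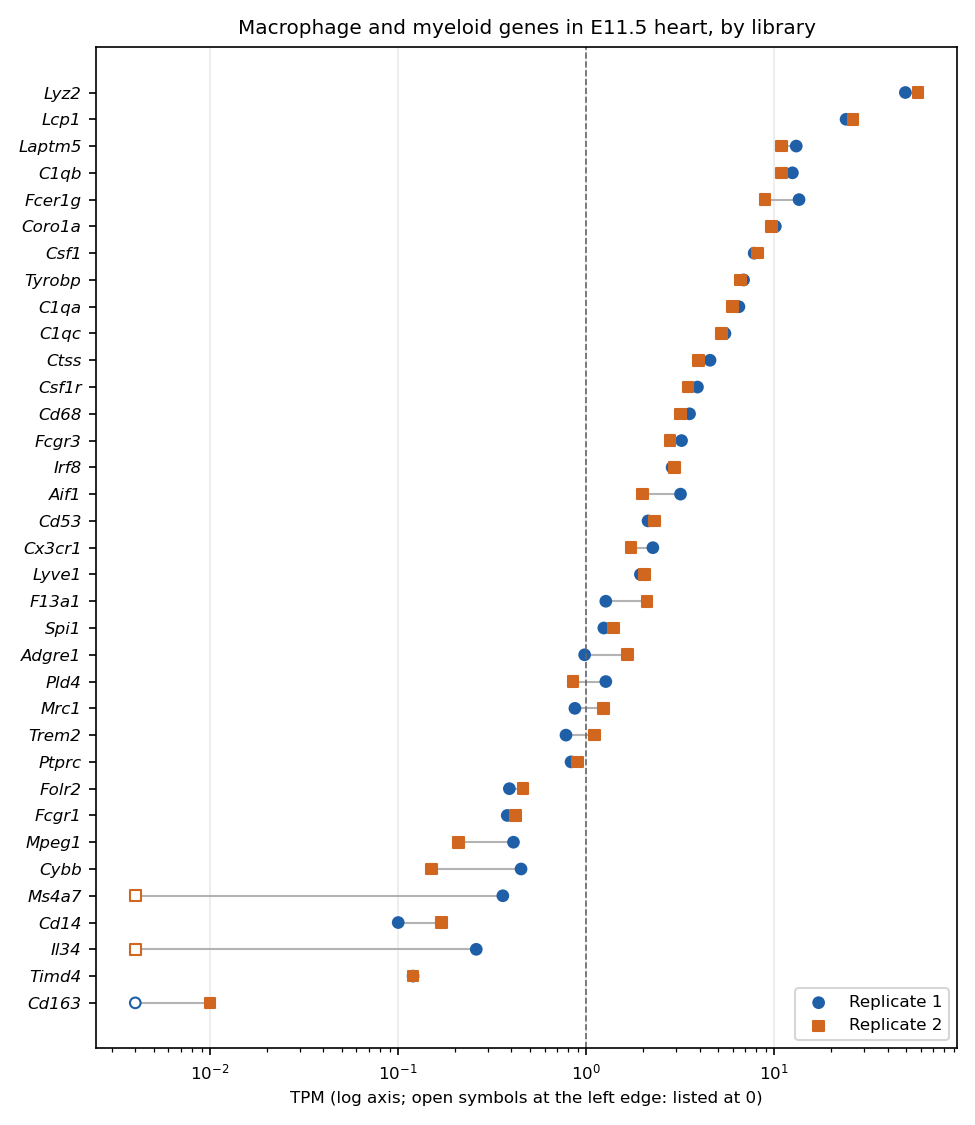
TPM of the 35 members (rows, ordered by mean) in replicate 1 (circles) and replicate 2 (squares) on a log axis, with a dashed line at 1 TPM and open symbols where a gene was listed at 0. Lyz2 stands highest at 49.7 and 57.9 TPM, and Cd163 lowest with 0 and 0.01 TPM.

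Csf1r, the receptor on which most macrophages depend, had 3.90 TPM in replicate 1 and 3.47 TPM in replicate 2 (510 and 322 counts). Csf1, its main ligand in many tissues, made by stromal, endothelial and other cells, had 7.81 TPM in replicate 1 and 8.13 TPM in replicate 2. The ligand was thus 2.17-fold above the receptor by TPM, a log2 ratio of 1.12 ± 0.160 (SD, n = 2). Il34, the other ligand, known from neurons and keratinocytes, had 0.26 TPM from 8 counts in replicate 1 and was at 0 in replicate 2, where 3 counts would be 0.165 TPM. The authors' posterior mean, another estimate of the same level, was higher for Il34, at 0.59 TPM in replicate 1 and 0.49 TPM in replicate 2, beside 8.32 and 8.72 TPM for Csf1. Csf1 was above Il34 by either estimate, and the size of the gap depended on which was used. Csf1r shared 873 of its 5774 exon bases with Hmgxb3 on the opposite strand, which had 840 counts in replicate 1 and 776 in replicate 2. Whether counting used strand is not given in the sources used here, so reads over those bases cannot be assigned with certainty.

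The genes of C1q, the recognition molecule of the classical complement pathway that tissue macrophages secrete, were detected without exception. They lie next to each other on the minus strand of chromosome 4, C1qb at chr4:136880129-136886187, C1qc at chr4:136889804-136893065 and C1qa at chr4:136895917-136898803 (GRCm38). C1qb had 12.47 TPM in replicate 1 and 10.94 TPM in replicate 2, and C1qa had 6.48 and 6.01 TPM in the same order. C1qc, the remaining chain, had 5.46 TPM in replicate 1 and 5.22 TPM in replicate 2. C1qb stood 1.87-fold above C1qa and 2.19-fold above C1qc by TPM, and C1qa stood 1.17-fold above C1qc, with the same order in both libraries. Before division by length, C1qa and C1qc had nearly the same counts, 174 and 172 in replicate 1 and 114 and 116 in replicate 2. The protein contains these chains in equal numbers. The C1q genes together had 24.4 TPM in replicate 1 and 22.2 TPM in replicate 2, a larger sum than the 3.59 and 3.21 TPM of the Fc receptor members.

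Fc receptors bind antibody, and their activating forms signal through adaptors that carry immunoreceptor tyrosine-based activation motifs (ITAM). Fcgr3, a low-affinity receptor for immunoglobulin G, had 3.21 TPM in replicate 1 and 2.79 TPM in replicate 2. Fcgr1, the high-affinity receptor, had 0.38 TPM in replicate 1 and 0.42 TPM in replicate 2, and lay 7.49-fold below Fcgr3. The adaptor Fcer1g had 13.53 TPM in replicate 1 and 8.92 TPM in replicate 2, and the adaptor Tyrobp had 6.86 TPM in replicate 1 and 6.62 TPM in replicate 2. Fcer1g was above Tyrobp in both libraries, 1.63-fold on average. Trem2, a lipid receptor that signals through the Tyrobp protein, had 0.78 TPM in replicate 1 and 1.11 TPM in replicate 2 from 20 and 27 counts. Both adaptors were above the receptors of the set that pair with them.

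Lyz2, which encodes lysozyme and is a standard marker of macrophages, granulocytes and their precursors, was the highest member. It had 49.72 TPM in replicate 1 and 57.94 TPM in replicate 2, or 26.6% and 31.2% of the summed level of the members. It was 14.6-fold above Csf1r by TPM. Its near-identical neighbour Lyz1 had 176 counts in replicate 1 and 230 in replicate 2, beside 1656 and 1362 for Lyz2, and reads may have been split between them. Ctss, a lysosomal protease of antigen-presenting cells, had 4.55 TPM in replicate 1 and 3.95 TPM in replicate 2. The other killing and lysosomal members were lower. Pld4, an endolysosomal nuclease, had 1.27 and 0.85 TPM in replicates 1 and 2, Mpeg1, a pore-forming protein of phagocytes, 0.41 and 0.21 TPM, and Cybb, the catalytic subunit of the phagocyte oxidase, 0.45 and 0.15 TPM. By posterior mean, Cybb had 0.74 TPM in replicate 1 and 0.55 TPM in replicate 2. Lyz2 therefore dominated a group in which 2 of 5 members reached 1 TPM in both libraries.

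Of 5 commonly used markers of macrophages, 3 were detected, Cd68, Aif1 and Cx3cr1. Cd68, a lysosomal glycoprotein, had 3.54 TPM in replicate 1 and 3.17 TPM in replicate 2. Aif1, an actin-binding protein used to stain macrophages and microglia, had 3.17 and 1.99 TPM, and Cx3cr1, the receptor for fractalkine, had 2.26 and 1.73 TPM in the same order. Adgre1, the gene of the classical mouse macrophage antigen, was lower in replicate 1, with 0.98 TPM in replicate 1 and 1.66 TPM in replicate 2. The ratio of Aif1 to Adgre1 was accordingly unsteady, with a log2 value of 0.98 ± 1.01 (SD, n = 2). Cd14, the co-receptor for bacterial lipopolysaccharide that monocytes carry, had 0.10 TPM in replicate 1 and 0.17 TPM in replicate 2, on 4 and 5 counts.

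Markers of long-lived resident and scavenging macrophages were low, and 2 of 7 reached 1 TPM in both libraries. Lyve1, a hyaluronan receptor that lymphatic endothelium also carries, had 1.94 TPM in replicate 1 and 2.04 TPM in replicate 2. F13a1, the catalytic subunit of coagulation factor XIII, found in macrophages and megakaryocytes, had 1.27 and 2.10 TPM. Mrc1, the mannose receptor, which some endothelium also carries, had 0.87 and 1.23 TPM in replicates 1 and 2. Folr2, a folate receptor of resident macrophages, had 0.39 and 0.46 TPM in that order on 11 and 9 counts. The antisense gene Gm10602 overlapped 975 of the 1546 exon bases of Folr2 and had more counts than it, 26.7 in replicate 1 and 33.0 in replicate 2. Timd4, a receptor for phosphatidylserine on dying cells, had 0.12 TPM in each library, on 7 counts in replicate 1 and 5 in replicate 2. Lyve1 was 16.6-fold above Timd4 by TPM, a size that rests on those few counts. With 1 added to each TPM the log2 ratio was 1.42 in place of 4.05. Cd163, the scavenger receptor for haemoglobin bound to haptoglobin, had no count in replicate 1, where 3 counts would be 0.0242 TPM, and 1 count in replicate 2. Ms4a7, a membrane-spanning protein of macrophages, had 0.36 TPM from 8 counts in replicate 1 and no count in replicate 2, where 3 counts would be 0.101 TPM. Its posterior mean was 0.55 TPM in replicate 1 and 0.27 TPM in replicate 2.

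Genes shared by all leukocytes accounted for 50.21 TPM in replicate 1 and 50.03 TPM in replicate 2, and 4 of 5 were detected. Lcp1, an actin-bundling protein, had 24.06 and 26.24 TPM, and Laptm5, a lysosomal membrane protein of blood cells, had 13.07 and 10.92 TPM in the same order. Coro1a, an actin-binding coronin, had 10.12 TPM in replicate 1 and 9.67 TPM in replicate 2, and Cd53, a tetraspanin, had 2.13 and 2.30 TPM. Lcp1 was 2.54-fold above Coro1a. Ptprc, the transmembrane phosphatase that marks nucleated blood cells, was listed at 0.83 TPM in replicate 1 and 0.90 TPM in replicate 2. Those values lay below the authors' own interval for Ptprc, 0.937 to 1.91 TPM in replicate 1 and 0.940 to 2.23 TPM in replicate 2, whose level is not stated. By posterior mean, Ptprc had 1.38 TPM in replicate 1 and 1.54 TPM in replicate 2. Ptprc was the only member whose TPM fell outside that interval in both libraries, and 6 members did so in at least 1 library.

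The lineage transcription factors were both present. Spi1 had 1.24 TPM in replicate 1 and 1.40 TPM in replicate 2, on 65 and 52 counts. Irf8, a factor of monocytes, dendritic cells and yolk-sac-derived macrophages, had 2.86 TPM in replicate 1 and 2.94 TPM in replicate 2, 2.20-fold above Spi1. Of 24 other transcription factors known from myeloid cells, 17 reached 1 TPM in both libraries. The highest of these were Id3 and Stat3, which many cell types express, with 303 and 32.9 TPM in replicate 1 and 307 and 36.7 TPM in replicate 2.

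The libraries were then compared with each other, gene by gene, to see how far the members varied between the pools. Rounded expected counts were tested with an exact binomial test over 16621 genes, scaled by TMM (trimmed mean of M-values) library sizes, so the test covers counting error of these 2 libraries and nothing else. A gene was called at a Benjamini-Hochberg adjusted p under 0.05 and a difference of at least 2-fold. None of the 30 members with enough counts was called, against 4.69% of all genes tested. By edgeR's exact test with a common dispersion the count was also 0, against 1.37% of all genes. That test kept the 2-fold limit on the same ratio, which no tested member reached, so it could not have called one. Its dispersion was estimated from these same 2 libraries. An unadjusted binomial p under 0.05 was found for 13 of the 30, against 46.5% of all genes. The other 5 members, Ms4a7, Cd14, Il34, Timd4 and Cd163, had fewer than 20 counts in all and were not tested. With no limit on the fold, 8 members passed an adjusted p of 0.05, against 39.6% of all genes tested, and the 8 are 26.7% of the members tested. The median log2 ratio of replicate 1 over replicate 2 was 0.12 over the members and 0.00022 over all genes, and the members ranged between -0.88 and 0.995.

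The 8 members divided evenly between the libraries. Higher in replicate 1 were Fcer1g, with a log2 ratio of 0.69 (adjusted p = 0.000245, exact binomial test), Mpeg1 at 0.995 (adjusted p = 0.0269), Aif1 at 0.96 (adjusted p = 0.0262) and Cx3cr1 at 0.45 (adjusted p = 0.0237). Higher in replicate 2 were Adgre1, with a log2 ratio of -0.71 (adjusted p = 0.00303, exact binomial test), F13a1 at -0.68 (adjusted p = 0.000318), Lyz2 at -0.17 (adjusted p = 0.00446) and Lcp1 at -0.12 (adjusted p = 0.0451). Trem2 had the lowest log2 ratio, -0.88, but on few counts (adjusted p = 0.0872, exact binomial test).

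**Figure D2:**
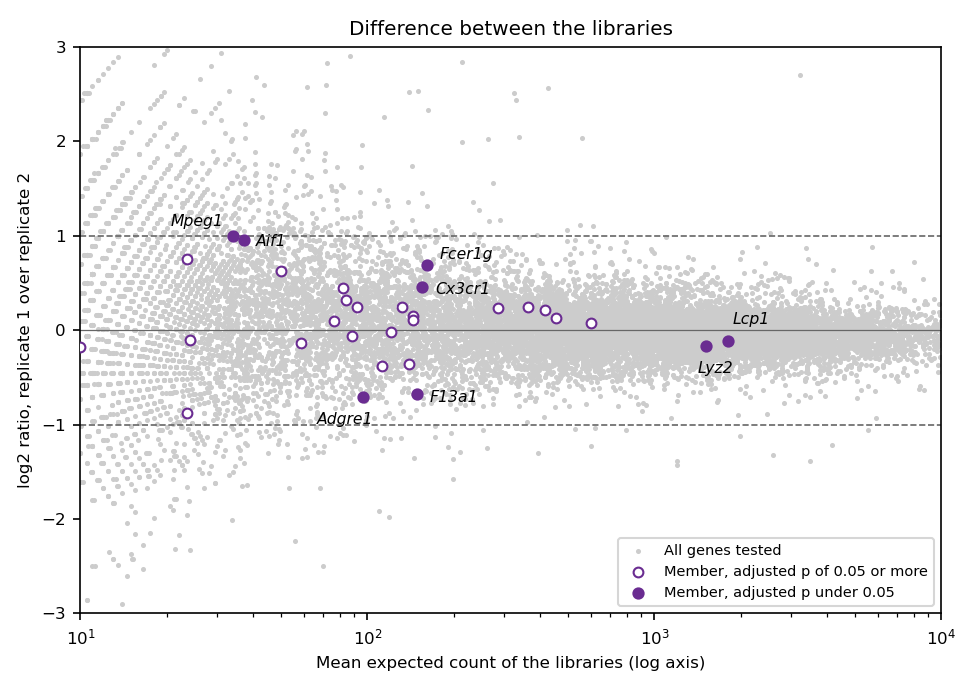
Log2 ratio of replicate 1 over replicate 2 (vertical axis) against the mean expected count (log axis) for all genes tested (grey) and the 30 tested members (purple, filled where the adjusted p was under 0.05); dashed lines mark 2-fold and genes beyond the axes are not drawn. All 30 members lie between the dashed lines, with Mpeg1 at 0.995 and Aif1 at 0.96 nearest the upper line.

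Marker genes of other blood cells were read beside the members. Among 14 genes of neutrophil granules and surface, 3 reached 1 TPM in both libraries, Mpo at 7 TPM in replicate 1 and 5 TPM in replicate 2, S100a8 at 4.78 and 1.86 TPM, and Prtn3 at 2.84 and 1.86 TPM. Their summed level was 23.4 TPM in replicate 1 and 11.5 TPM in replicate 2, while Ly6g and Retnlg had no count in either library. Of 8 neutrophil genes tested, 4 were called by the binomial test, against 4.69% of all genes tested. They were S100a8, S100a9, Ngp and Lcn2, all higher in replicate 1, with 11, 8, 7 and 2 counts in replicate 2. Ngp and Lcn2 were named after their values were seen, and the test covers counting error only. S100a9, a calcium-binding protein of granulocytes and monocytes, had 54 counts in replicate 1 and 8 in replicate 2, a log2 ratio of 2.23 (adjusted p = 6.82e-06, exact binomial test). Their part in the differences of the members between the libraries was not tested. Erythroid genes had a summed level of 45398 TPM in replicate 1 and 38194 TPM in replicate 2, and lymphoid genes 3.91 and 5.17 TPM in the same order.

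Monocyte genes were detected in 4 of 12 cases, led by Cd44, Plac8 and Nr4a1, which other cells also express. The remaining detected gene was Itgb2, with 1.73 TPM in replicate 1 and 1.69 TPM in replicate 2. Ly6c2, which defines classical monocytes, had no count in either library. The single monocyte gene called was Ccr2, the receptor that brings monocytes out of the blood, with 27 counts in replicate 1 and 1 count in replicate 2 (adjusted p = 4.58e-05, exact binomial test). Ccr2 was singled out after its values were seen, and 4.69% of all genes tested were called. Of the 10 monocyte genes tested, 5 were higher in replicate 1. Of 12 dendritic cell and MHC class II genes, 3 were detected, H2-Ab1, Zbtb46 and Cd83, and H2-Aa had no count. Of 10 mast cell and basophil genes, Kit and Hdc were detected, and Fcer1a, Tpsab1, Mcpt8 and Cma1 had no count. Of 16 lymphoid genes, Trac alone was detected, and Ms4a1, Cd3d, Cd3e, Klrb1c and Ncr1 had no count in either library.

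Lists for other macrophages gave mixed values. Of 27 genes of other resident macrophages, 12 were detected, led by Apoe with 258 TPM in replicate 1 and 271 TPM in replicate 2, Pf4 with 85.4 and 80.9 TPM and Selenop with 67.1 and 63.7 TPM. These leading genes are also made by megakaryocytes or other cells, and Marco, Vsig4 and Cd209f had no count in either library. Of 11 genes of microglia, the macrophages of the brain, 6 were detected, among them Sparc and Olfml3, which connective tissue and other cells express as well. All 10 megakaryocyte and platelet genes were detected, with a summed level of 143 TPM in replicate 1 and 150 TPM in replicate 2, and this list includes F13a1. Of 11 endothelial and lymphatic genes 10 were detected, led by Plvap, Emcn and Tek, and their summed level was 351 TPM in replicate 1 and 415 TPM in replicate 2.

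**Figure D3:**
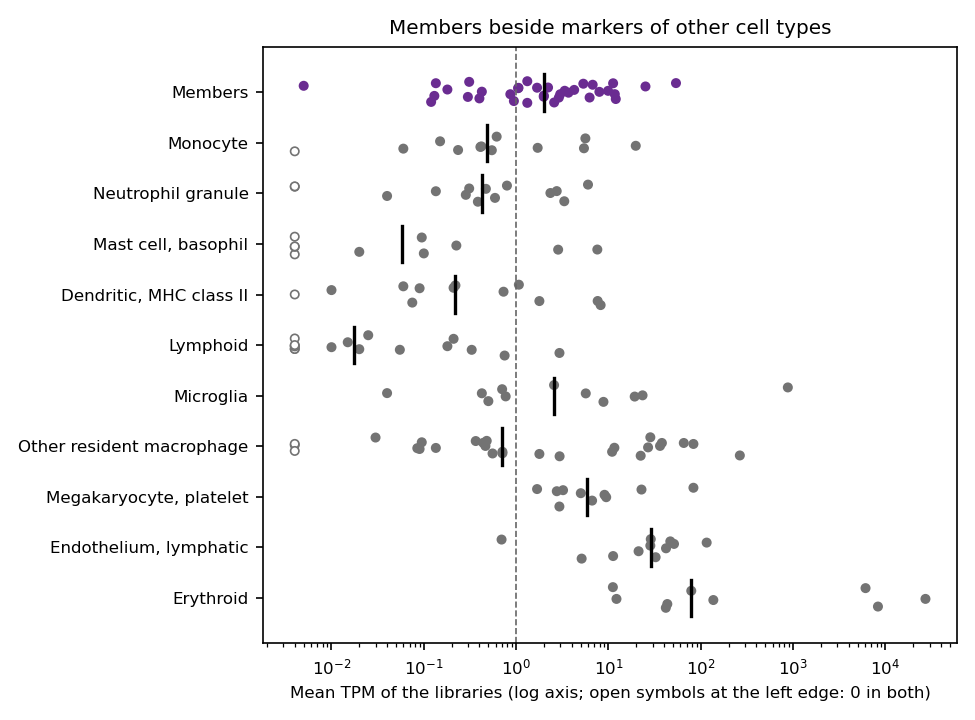
Mean TPM over the 2 libraries (log axis) of each gene (points) in the members and in 10 marker lists of other cell types, with a black bar at the median of each list and open symbols for genes at 0 in both. The members have a median of 2.00 TPM by gene mean. It is above the medians of the monocyte, neutrophil, mast cell, dendritic, lymphoid and other resident macrophage lists. It is below those of the microglia, megakaryocyte, endothelial and erythroid lists.

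The pathways around the members were also read. Of 20 genes of ITAM signalling, 12 were detected, with Grb2 at 29.5 TPM in replicate 1 and 40.3 TPM in replicate 2, Lyn at 13.7 and 13.6 TPM and Sirpa at 9.58 and 11.5 TPM. Of 8 oxidase genes other than Cybb, 7 were detected, and the partner subunit Cyba had 124 TPM in replicate 1 and 120 TPM in replicate 2. The catalytic Cybb was thus far below its partner, which other oxidases use as well. Of 16 other complement genes 7 were detected, led by Calr, Cd59a and Cd93, and C4b had no count in either library. Of 24 genes of colony-stimulating factors, cytokines and their receptors, 9 were detected, led by Ifngr2, Il10rb and Ifngr1, and Il3 had no count. Of 17 lysosomal genes 16 were detected, led by Cst3, Ctsd and Lamp1, which most cells express. Of 4 other Fc receptor genes Fcgrt alone was detected, and of 4 genes of folate uptake 3 were, Slc19a1, Slc46a1 and Folr1, with Izumo1r at 0. Of 10 progenitor genes 8 were detected, led by Cd34, Mecom and Lmo2, and which cells expressed them was not tested. Myb, with 1.21 TPM in replicate 1 and 0.75 TPM in replicate 2, and Spn, with 0.28 and 0.24 TPM, were not detected.

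The transcript tables showed which forms of the members were counted. Of the 29 members with at least 10 counts in both libraries, 9 had a single annotated transcript and 20 had several. In 16 of those 20 the libraries shared the leading transcript, and in Aif1, Csf1, Laptm5 and Trem2 they did not. Lcp1-206, a protein-coding transcript, held 58.6% of the TPM of Lcp1 in replicate 1 and 58.2% in replicate 2, and Spi1-201 held 93.3% and 93.1% of that of Spi1. The shares of Csf1 were less steady, with Csf1-201 at 50.8% in replicate 1 and 31.2% in replicate 2 and Csf1-202 at 27.5% and 39.2%. For Aif1, the protein-coding Aif1-203 held 61.7% in replicate 1 and 35.6% in replicate 2, and the rest was assigned to Aif1-205, annotated as a retained intron. Different protein-coding transcripts of Trem2 led in the libraries, with Trem2-202 at 69.4% in replicate 1 and 0% in replicate 2 and Trem2-201 at 0% and 94.1%, on 20 and 27 counts in all.

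Short annotated transcripts weighed on some gene levels, since TPM divides counts by length. Cybb-205, of 390 bases, took 48.0% of the TPM of Cybb in replicate 1 on 1.80 counts and had none in replicate 2. The TPM of Cybb was 3-fold higher in replicate 1, while its scaled counts differed 1.69-fold (adjusted p = 0.193, exact binomial test). Laptm5-210, of 723 bases, held 46.7% of the TPM of Laptm5 in replicate 1 on 109 of its 544 counts. Parts of some members were assigned to transcripts annotated as not coding, such as the retained-intron transcript Mrc1-202 with 20.1% in replicate 1 and 26.6% in replicate 2, and Cd68-203, a processed transcript, with 11.7% and 38.6%.

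**Figure D4:**
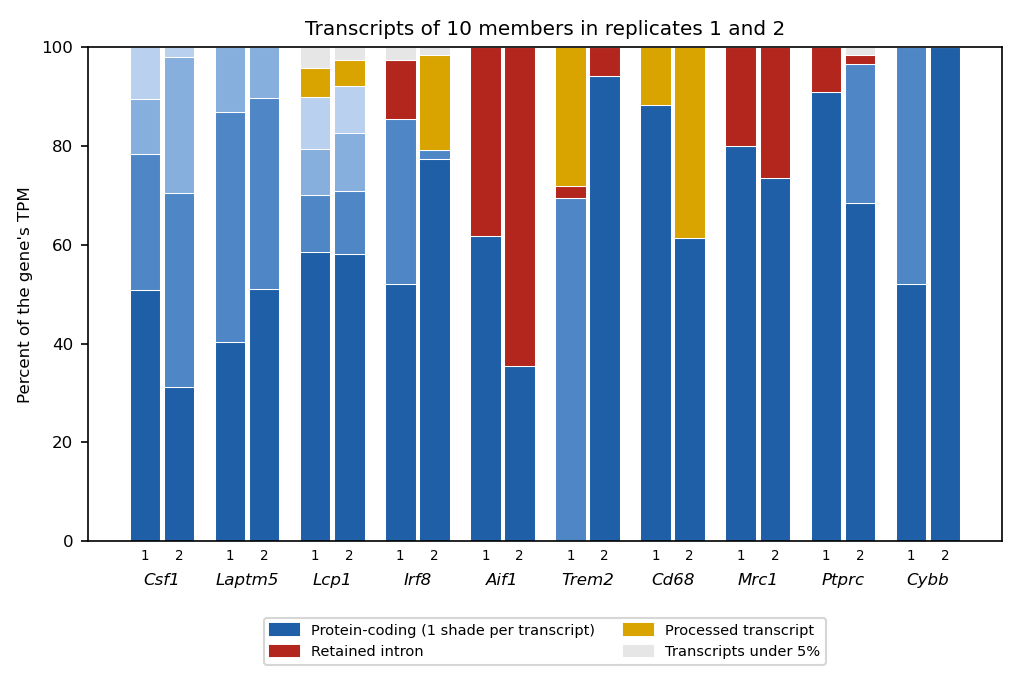
Share of each gene's TPM (percent) assigned to its annotated transcripts in replicate 1 (left bar) and replicate 2 (right bar) for 10 members with several transcripts, coloured by annotated type with 1 shade of blue per protein-coding transcript. The bars of Lcp1 are alike, at 58.6% and 58.2% for the leading transcript, while the leading protein-coding transcript of Trem2 differs between the libraries.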

How the data were processed

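Total RNA-seq tables of 2 libraries were used, 1 gene table and 1 transcript table each. Per the file headers, the deposited tables hold expected counts (not normalized), TPM scaled by the authors to one total per library, with spike-in and tRNA rows counted in, the authors' bounds of an interval of TPM, and the percent of a gene's TPM in each transcript. Per the deposited notes beside the tables, reads were quantified against mm10 with annotation release M4; the aligner, quantifier and strand setting were not found (not given in the sources used here). Extraction used mirVana reagents, each library started from 10 ng, and a SmartSeq protocol is linked, per the labels.

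Symbols, coordinates and exons came from GENCODE M21 (GRCm38), which matched 42462 of 43346 mouse genes, and promoters from RefSeq (GRCm38.p6). The members and all gene lists were chosen with earlier results of these data known. Every member is named; of other lists, the 3 highest genes and markers at 0 counts are named, except a few that are not reported here. A gene counts as detected at 1 TPM in both libraries, and 3 counts were taken as the limit for a count of 0; these limits cover counting error only. Levels have no p, since the smallest sign-flip p over 2 libraries is 0.5. The libraries were compared by an exact two-sided binomial test (scipy 1.17.1) of rounded expected counts, with TMM sizes from edgeR 4.0.16, for genes with at least 20 counts summed and 0.5 added for log2 ratios. The test was checked on simulated counts with counting noise alone. It called 91 of 100 genes changed 3-fold, 96 of 100 changed 5-fold and 0 unchanged genes. Variation between libraries beyond counting error was not simulated, so the check does not cover it. edgeR's common dispersion, size factors of DESeq2 1.42.0 and the other alternatives are in the closing section.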

Additional observations from a re-analysis of the deposited data

How the results depend on the processing

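The number of members detected was 16 to 29 over the other thresholds and estimates, against 21, and 22 to 24 with a library left out. The number called between the libraries was 0 with DESeq2 size factors, no filter on low counts, posterior mean counts and edgeR's exact test, 1 when scaled by total counts (Mpeg1) and 8 with no limit on the fold. For edgeR's exact test the 0 was fixed by the 2-fold limit, which no tested member reached. Rescaling TPM over nuclear protein-coding genes without globins raised the median of the members to 3.19 TPM, their sum to 285 TPM and the number above 10 TPM in both libraries to 7. The sum was 192 TPM by posterior mean and 173 TPM without Csf1, Il34, Lyve1, Mrc1 and F13a1. With a library left out, the median was 2.04 to 2.13 TPM and the sum 185.78 to 186.85 TPM. Of 12 ratios between members, 2 changed direction when counts were not divided by length, C1qc to C1qa (log2 0.0042) and Aif1 to Adgre1 (log2 -1.55), as the alternative drops the length correction. Another 9 moved by more than the spread between the libraries without dividing by length, with Lyz2 to Csf1r at log2 1.89 in place of 3.87, and 9 did so with 1 added to each TPM, with Lyve1 to Timd4 at 1.42 in place of 4.05 and Fcgr3 to Fcgr1 at 1.51 in place of 2.91. By posterior mean 3 moved. The libraries shared the leading transcript in 25 of 29 members, 9 of which have a single transcript and could not differ, and in 26 by posterior mean. Depth limits the 5 members under 10 counts in both libraries. No paired analysis was possible because there is 1 group.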

Other observations

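The Irf8 gene, at chr8:120736358-120756694 on the plus strand (GRCm38), lies inside the span of Gm20388, a gene model annotated as protein-coding at chr8:119910841-124345722 on the same strand, which holds 207 other annotated genes. Gm20388 had 838 expected counts in replicate 1 and 17.6 in replicate 2, a log2 ratio of 5.05 and a fold of 33.1 in these libraries (adjusted p = 3.41e-167, exact binomial test). No exon base shared by Irf8 and Gm20388 was found in GENCODE M21. Reads were counted with release M4, and whether the genes shared reads was not tested. Irf8 had 144 counts in replicate 1 and 135 in replicate 2. Gm20388 was singled out after its values were seen, and the source of its difference was not tested.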
